A study of Rattus norvegicus with 9 samples.

Results

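The genes described here are 10 genes of oxygen sensing and of the response to low oxygen: Hif1a, Epas1, Hif3a, Egln1, Egln3, Vhl, Adm, Bnip3, Car9 and Ndrg1. They were chosen by name, with earlier results of these data known. All 10 were measured, among 14497 genes that the array's annotation names by 1 symbol. Lung RNA came from 7 Wistar rats, of which 3 had metabolic syndrome (MetS) and 4 were controls. The MetS rats drank nothing but a 30% sucrose solution for 24 weeks from weaning, while control rats drank water. Both groups ate Laboratory Rodent Diet 5001 chow freely and were killed by decapitation after 7 hours of fasting. Male is stated for the MetS rats, while the sex of the control rats is not stated, and the labels name no batch. Each value is the log2 expression of a transcript cluster on an Affymetrix array, here called a probe. For MetS 1 and control 1 there were 2 arrays each, and these were averaged, so that n counts animals. In whole lung, fewer cells of a type and less RNA per cell cannot be told apart.

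Cells sense oxygen through hypoxia-inducible factors (HIFs), pairs of an oxygen-labile alpha subunit and the stable subunit Arnt. With oxygen present, prolyl hydroxylases of the Egln family modify the alpha subunit, the Vhl protein binds the modified form, and the subunit is degraded. With little oxygen the alpha subunit accumulates and drives genes of blood flow, metabolism and mitochondrial turnover. This control acts on the protein, so the RNA of an alpha subunit does not measure its activity. In lung, Epas1 is known as a gene of the endothelium, where it bears on the pressure in the pulmonary arteries.

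The samples carried the markers of lung. Sftpc, a surfactant protein gene of alveolar type 2 cells, had a log2 level of 13.89 ± 0.01 in MetS rats and 13.89 ± 0.01 in control rats, and Pecam1, an endothelial adhesion gene, at 11.49 ± 0.18 and 11.36 ± 0.15 (SD, n = 3 and 4). Some animals stood apart. The SD over all probes was between 1.88 and 1.93 in the MetS animals and between 1.76 and 1.88 in the controls, with controls 2 and 3 lowest at 1.77 and 1.76. The mean of 5 heart muscle markers, which cells of pulmonary veins or heart tissue can bring, was 9.28 in MetS animal 1 and 10.64 in control 1. In the other 5 animals it was 7.30 and 7.25 in MetS and 6.96, 7.08 and 6.94 in controls. Some of the results that rest on these animals are given below with and without them, but not all.

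Of the 10 genes, Hif3a alone separated the groups, at a difference of 1.23-fold, and the other 9 had overlapping animals. With limma, 0 of the 10 passed an adjusted p of 0.05 over all probes, where 0% of probes did. At an unadjusted p under 0.05 there was 1 gene higher, Hif3a, and 0 lower, against 3.87% and 9.17% of all named genes. The groups did not overlap for 1 gene of 10, against 11.6% of named genes, a share near the background. A difference above 0 was found for 7 of the 10, against 62% of named genes. The median difference of the 10 was 0.05 on the log2 scale, and 0.04 over all named genes. All 10 lay above the 25th percentile of probe means (6.48), which is not a detection limit. Car9 was lowest, with means of 6.82 in MetS and 6.86 in controls. Hif3a, with means of 7.40 and 7.10, lay below the array medians (7.64 to 7.69).

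**Figure D1:**
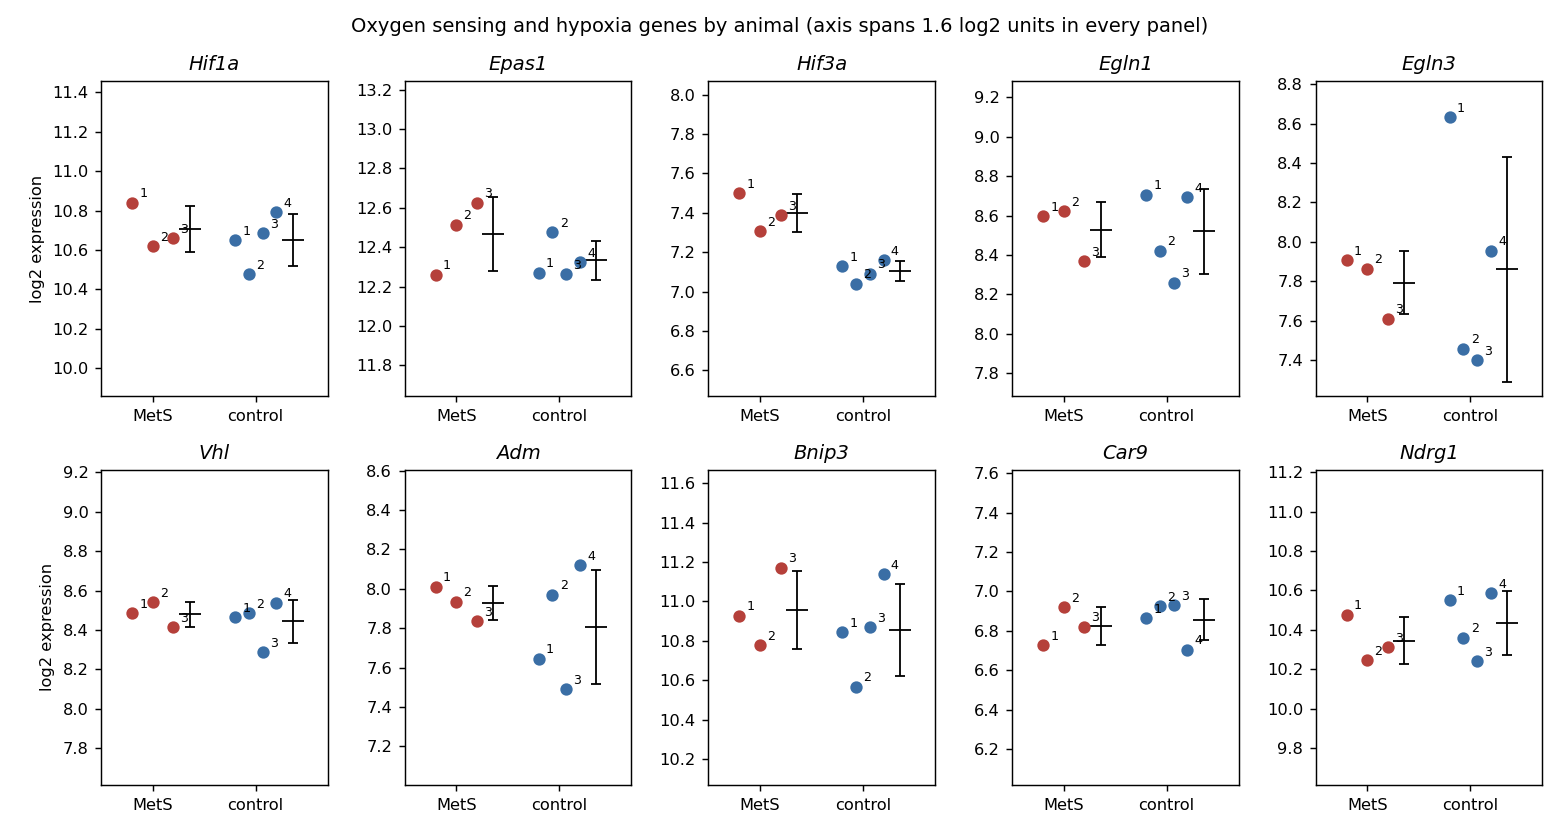
Log2 expression of each gene by animal, with MetS animals in red on the left and controls in blue on the right; numbers are the animal numbers, and the bars beside the points are the mean and SD. The Hif3a values of the 3 MetS animals, from 7.31 to 7.50, lie above the 4 control values, from 7.04 to 7.16, and control 1 lies far above the other animals for Egln3.

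The alpha subunits came first. Hif3a codes for an alpha subunit with several splice forms, some of which restrain the other HIFs. Its log2 values were 7.50, 7.31 and 7.39 in MetS animals 1 to 3, against 7.13, 7.04, 7.09 and 7.16 in controls 1 to 4. Every MetS animal was above every control, and the gap between the lowest MetS and the highest control value was 0.15. The difference was 0.29 (SE 0.07), a 1.23-fold higher level with a 95% interval from 1.10 to 1.37. The unadjusted p was 0.00324, and 46 of the 14497 named genes had a p as small, 8 of them with a difference above 0. Over all probes the adjusted p in limma was 0.324, which misses the threshold. An exact permutation test over the 35 splits of the animals gave p = 0.0571 (two-sided), the smallest that 3 and 4 animals allow.

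The Hif3a difference held in size when animals were left out. Leaving out each animal in turn gave differences between 0.24 and 0.34, and leaving out controls 2 and 3 together gave 0.25. With the array SD as a covariate it was 0.21 (unadjusted p = 0.0488, limma adjusted p = 0.999). Arrays of the same animal differed for Hif3a by 0.07 in MetS animal 1 and by 0.10 in control 1, less than the gap between the groups. The 3 named genes whose animal-to-animal pattern lay closest to Hif3a were Reep6, Zdhhc15 and Casp8ap2. Their root mean square distances from it over the 7 animals, after each gene's own mean was taken off, were 0.0419, 0.0437 and 0.0497 log2 units.

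**Figure D2:**
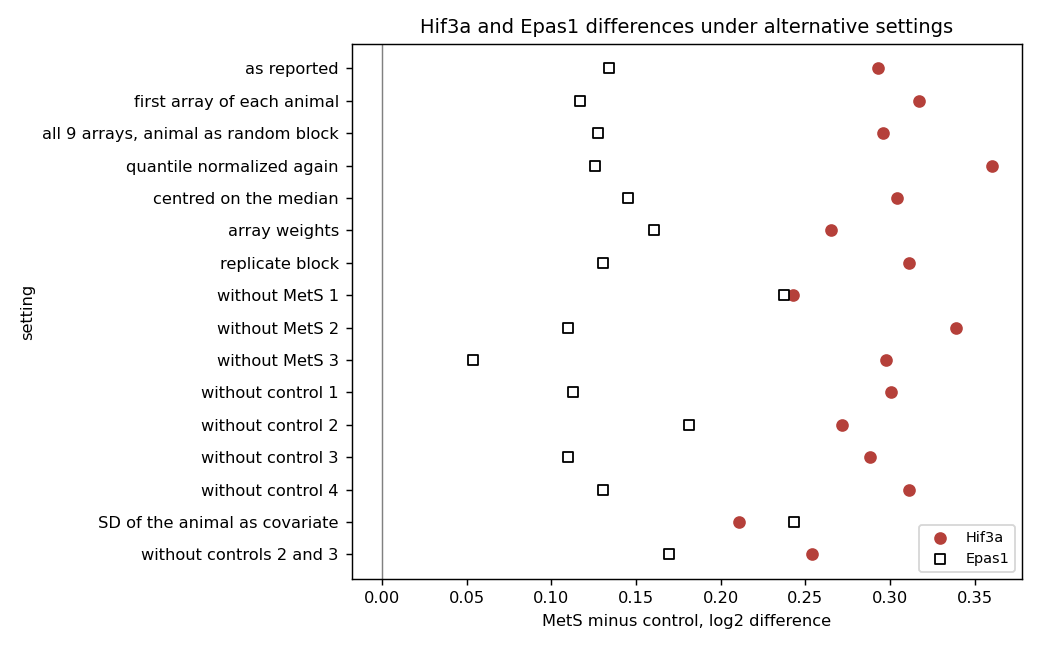
Log2 difference, MetS minus control, of Hif3a (filled circles) and Epas1 (open squares) as reported and under alternative settings. Hif3a stays between 0.21 and 0.36 and above 0 in every setting drawn, and Epas1 ranges from 0.05 without MetS animal 3 to 0.24 with the SD of the animal as covariate.

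Epas1 codes for the alpha subunit that marks endothelial cells. Its log2 values were 12.26, 12.52 and 12.63 in MetS animals 1 to 3, against 12.27, 12.48, 12.26 and 12.32 in controls 1 to 4. MetS animals 2 and 3 were the highest of the 7, MetS animal 1 was the lowest, and the groups overlapped. The difference was 0.13 (SE 0.10), 1.10-fold with a 95% interval from 0.929 to 1.30 (limma, adjusted p = 0.554). Without MetS animal 1 it was 0.24, with an unadjusted p of 0.0371, and the groups no longer overlapped. The adjusted p was then 0.59 (limma). The mean of 9 measured endothelial markers was also lowest in this animal, at 10.59 against 10.93 and 10.97 in MetS animals 2 and 3. In controls 1 to 4 the marker mean was 10.72, 10.79, 10.77 and 10.98. Among controls it was thus highest in control 4, while Epas1 was highest in control 2. The part of endothelial content in the Epas1 values was not tested.

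Hif1a codes for the broadly used alpha subunit. On the log2 scale it stood at 10.84, 10.62 and 10.66 in MetS animals, against 10.65, 10.48, 10.69 and 10.79 in controls 1 to 4. The groups overlapped, with the highest value in MetS animal 1 and the lowest in control 2. The difference was 0.05 (SE 0.09), with a 95% interval from 0.891-fold to 1.21-fold.

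The promoter windows are shown for Hif3a, the gene that separated the groups, beside 3 others of the 10 genes whose windows hold the HIF core letters: the hydroxylase gene Egln1 and the targets Bnip3 and Car9. HIF complexes bind DNA at a short core, searched here as ACGTG and as GCGTG on both strands. Windows run from 250 bases before to 50 bases from a transcript start, are RefSeq's on build GRCr8, and are written 5′ to 3′ on the gene's strand with each core, or its reverse complement CACGT or CACGC, in capitals. The Hif3a windows lie at chr1:86877789-86878088 and chr1:86872056-86872355, both on the minus strand. The Egln1 window is chr19:69804632-69804931 (minus strand), the Bnip3 window chr1:203154913-203155212 (minus strand) and the Car9 window chr5:62558774-62559073 (plus strand).
Hif3a first window: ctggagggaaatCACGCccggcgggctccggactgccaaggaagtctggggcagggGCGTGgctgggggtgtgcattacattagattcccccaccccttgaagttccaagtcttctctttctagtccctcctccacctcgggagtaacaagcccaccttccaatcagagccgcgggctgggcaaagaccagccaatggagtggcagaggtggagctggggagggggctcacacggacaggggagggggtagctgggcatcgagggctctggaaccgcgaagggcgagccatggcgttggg
Hif3a second window: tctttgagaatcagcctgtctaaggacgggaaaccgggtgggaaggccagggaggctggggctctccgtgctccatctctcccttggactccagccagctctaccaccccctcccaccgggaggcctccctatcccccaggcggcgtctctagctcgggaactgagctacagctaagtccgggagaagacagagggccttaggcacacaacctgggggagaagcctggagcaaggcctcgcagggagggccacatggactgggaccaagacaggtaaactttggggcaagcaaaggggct
Egln1: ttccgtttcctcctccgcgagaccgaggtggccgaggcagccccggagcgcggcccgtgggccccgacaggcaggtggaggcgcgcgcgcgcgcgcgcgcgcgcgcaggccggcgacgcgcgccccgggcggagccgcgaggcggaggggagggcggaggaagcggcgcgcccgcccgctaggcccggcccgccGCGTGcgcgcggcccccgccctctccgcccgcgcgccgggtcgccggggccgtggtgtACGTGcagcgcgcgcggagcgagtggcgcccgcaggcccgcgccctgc
Bnip3: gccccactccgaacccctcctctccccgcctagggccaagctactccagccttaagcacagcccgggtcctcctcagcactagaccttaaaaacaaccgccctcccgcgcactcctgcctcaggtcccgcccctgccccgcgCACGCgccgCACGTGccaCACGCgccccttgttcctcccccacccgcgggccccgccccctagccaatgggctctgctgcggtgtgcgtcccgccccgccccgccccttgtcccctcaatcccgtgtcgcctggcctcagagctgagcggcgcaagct
Car9: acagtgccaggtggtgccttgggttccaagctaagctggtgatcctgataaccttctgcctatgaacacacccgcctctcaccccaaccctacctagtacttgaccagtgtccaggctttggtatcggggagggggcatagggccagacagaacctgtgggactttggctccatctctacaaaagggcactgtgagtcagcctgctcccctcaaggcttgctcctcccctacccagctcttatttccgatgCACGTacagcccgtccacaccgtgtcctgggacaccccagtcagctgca
The first Hif3a window held GCGTG at 2 places over both strands, with first bases at -238 and -194 from the start, and the second held neither core. Bnip3 had 4 matches between -108 and -90, of which ACGTG and its reverse complement overlap in the letters CACGTG. Egln1 had GCGTG at -56 and ACGTG at 3, and Car9 had CACGT at 2. Of the 9 genes with a window, 5 held a core, Hif1a, not shown, being the other with 3 matches, and 4 held none: Epas1, Egln3, Vhl and Adm. Over all 33469 windows, 19.25% held ACGTG, 29.7% held GCGTG and 41.64% held either, so these cores are common. A match is a description of letters and not a binding site.

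The enzymes that mark the alpha subunits gave no separation of the groups. Egln1 codes for the prolyl hydroxylase that sets the oxygen response in most cells. The log2 values read 8.60, 8.62 and 8.37 in MetS animals, against 8.71, 8.42, 8.26 and 8.69 in controls 1 to 4. The MetS animals lay inside the range of the controls, with a difference of 0.01 (SE 0.13) and a 95% interval from 0.814-fold to 1.24-fold. A second Egln1 probe read 8.54 ± 0.11 in MetS and 8.41 ± 0.32 in controls (SD, n = 3 and 4), a difference of 0.13. RefSeq lists 6 pseudogenes of Egln1, and which copy each probe reads was not determined. With the array SD as a covariate the Egln1 difference was -0.30 (unadjusted p = 0.0244, adjusted p = 0.999 in limma), so its sign was not settled.

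Egln3 codes for a prolyl hydroxylase that low oxygen itself induces, and it varied most of the 10 genes. Its log2 values were 7.91, 7.86 and 7.61 in MetS animals, against 8.63, 7.46, 7.40 and 7.96 in controls 1 to 4. Control 1 stood far above the next animal, control 4, and controls 2 and 3 were the lowest of the 7. The group means were 7.79 ± 0.16 in MetS and 7.86 ± 0.57 in controls (SD, n = 3 and 4), and the difference was -0.07 (SE 0.29) with a wide 95% interval, from 0.593-fold to 1.53-fold. Without control 1 the control mean was 7.60 ± 0.31 and the difference turned to 0.19, while without controls 2 and 3 it was -0.50 (unadjusted p = 0.0753). Under the array SD as a covariate it was -0.66 (unadjusted p = 0.0719), the largest move under that covariate among the 10 genes.

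Control 1 was also the animal with the highest heart muscle markers. Actc1, the cardiac actin gene, stood at 12.06 in control 1 and 10.72 in MetS animal 1. It was 8.34 and 8.40 in the other MetS animals and between 7.60 and 7.80 in the other controls. All 5 measured heart muscle markers had their highest value in control 1 and the next in MetS animal 1. Egln3 did not follow in MetS animal 1, which lay within 0.05 of MetS animal 2 and control 4. The 3 named genes closest to the Egln3 pattern were Slc25a4, Tmem38a and Pkia, at distances of 0.107, 0.136 and 0.138 log2 units over the 7 animals. Slc25a4 codes for the mitochondrial ADP/ATP carrier of heart and muscle, and Tmem38a for a channel of the muscle's calcium store. The part of heart muscle RNA in the Egln3 value of control 1 was not tested.

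**Figure D3:**
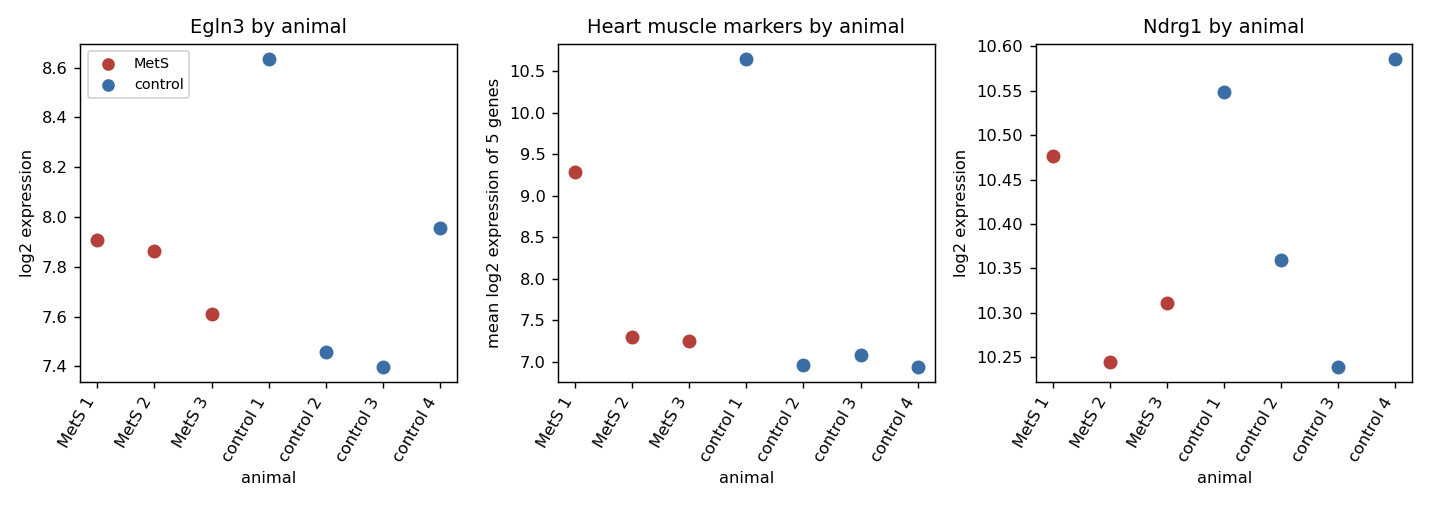
Egln3, the mean of 5 heart muscle markers (Myh6, Actc1, Tnnt2, Tnni3 and Ryr2) and Ndrg1 in each animal, on log2 scales that differ between panels; MetS animals are red and on the left, controls blue. Control 1 is highest for Egln3 (8.63) and for the heart muscle markers (10.64), while Ndrg1 is highest in control 4 (10.59).

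Vhl, the substrate-binding part of the ligase that degrades hydroxylated alpha subunits, varied least but for Car9. Its log2 values lay between 8.41 and 8.54 in MetS animals and between 8.29 and 8.54 in controls, and the same value of 8.49 was deposited on 4 of the 9 arrays. Control 3 alone was lower than every MetS animal. The difference was 0.04 (SE 0.08), with a 95% interval from 0.904-fold to 1.16-fold.

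The targets of the pathway overlapped between the groups as well. Adm codes for adrenomedullin, a peptide that widens vessels and guards the endothelial barrier. Log2 values of Adm were 8.01, 7.94 and 7.84 in MetS animals, against 7.64, 7.97, 7.49 and 8.12 in controls 1 to 4. The MetS animals lay inside the range of the controls, which spread wider, with an SD of 0.29 against 0.09 in MetS. The difference was 0.12 (SE 0.15), 1.09-fold with an interval from 0.846 to 1.40.

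Bnip3 codes for a protein of the mitochondrial membrane that marks mitochondria for removal. On its brighter probe the log2 values were 10.93, 10.78 and 11.17 in MetS animals, against 10.84, 10.57, 10.87 and 11.14 in controls 1 to 4. The order of the animals mixed the groups, and the difference was 0.10 (SE 0.15). Its other probe read 9.24 ± 0.20 in MetS and 9.34 ± 0.07 in controls (SD, n = 3 and 4), a difference of the opposite sign. RefSeq lists 8 pseudogenes of Bnip3, so the probes may read different copies, and no direction is given for the gene.

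Ndrg1 codes for a stress protein of the cytoplasm that low oxygen induces in many cells. Log2 values of Ndrg1 were 10.48, 10.24 and 10.31 in MetS animals, against 10.55, 10.36, 10.24 and 10.59 in controls 1 to 4. Controls 4 and 1 were highest, and control 3 and MetS animal 2 lowest. The difference was -0.09 (SE 0.11), 0.940-fold with an interval from 0.791 to 1.12. The array SD as a covariate made it -0.33 (unadjusted p = 0.00975, adjusted p = 0.999 in limma).

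Car9 codes for a carbonic anhydrase of the cell surface that is widely used as a hypoxia marker. Its log2 values lay between 6.73 and 6.92 in MetS animals and between 6.71 and 6.93 in controls. The ranges were almost equal, and the 2 arrays of MetS animal 1 differed by 0.19, as much as the whole MetS range. The difference was -0.03 (SE 0.08), with an interval from 0.856-fold to 1.12-fold.

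**Figure D4:**
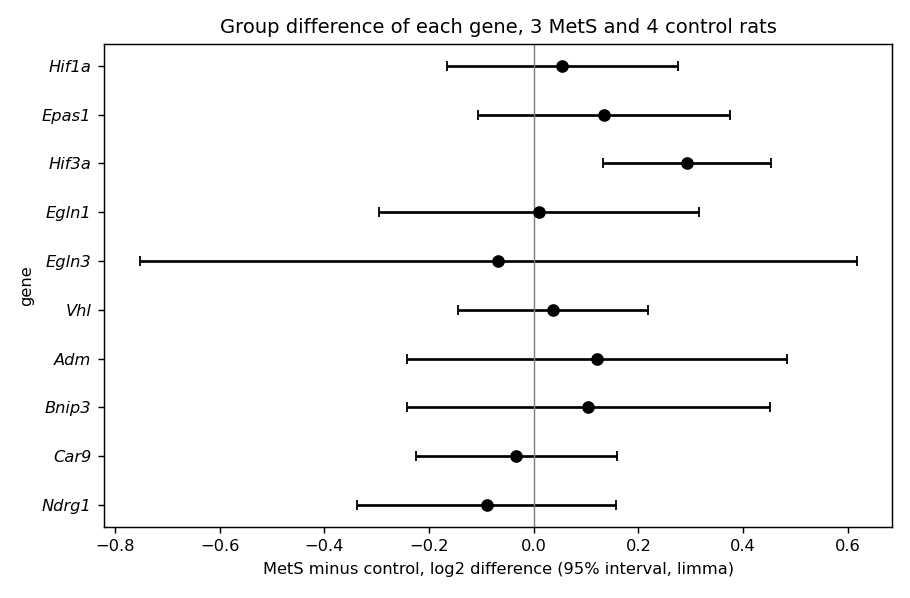
Log2 difference, MetS minus control, of each gene with its 95% interval from the limma fit over all probes (3 MetS and 4 control rats). The Hif3a interval, from 0.13 to 0.45, is the one that leaves out 0, and the Egln3 interval, from -0.75 to 0.62, is the widest.

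Among the 9 genes with overlapping groups the adjusted p in limma lay between 0.554 and 0.977. In the fit on group alone, no upper bound of their intervals exceeded 1.53-fold and no lower bound fell below 0.593-fold. These bounds depend on the fit. With the array SD as a covariate the Egln1 difference was -0.301, below the lower end of its interval here (-0.296). For Hif1a, Epas1, Vhl, Car9 and Ndrg1 the intervals lay between 0.791-fold and 1.30-fold. A missed threshold does not show that the groups were equal within these bounds.

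Arrays of 1 animal differed too. Over the 10 genes and the 2 animals hybridised again, the 20 differences between such arrays had a median of 0.07 and a highest value of 0.19, for Car9 in MetS animal 1. The SD between animals of Car9 was 0.097 in MetS and 0.105 in controls, below that value, and the arrays of control 1 differed for Hif3a by more than the control SD of 0.052. Control 3 had the lowest value of the 7 animals for 5 of the 10 genes and control 2 for 3. Of the 45 pairs among the 10 genes, none had a correlation over the animals with an adjusted p under 0.05. The pair with the smallest p was Egln1 with Egln3, whose Pearson r over 7 animals was 0.836 (p = 0.0139 by exact permutation, 0.256 after adjustment) and whose Spearman rho was 0.929 (p = 0.00675 by exact permutation, 0.304 after adjustment). Without MetS animal 3 and control 3, the farthest from the Egln1 median, r was 0.824. Both groups are pooled in these values, and the animals share the array spread described above.

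Beyond the 10 genes, 111 other genes of the pathway were measured in 7 lists. At an unadjusted p under 0.05, 5 of them were higher and 3 lower in MetS, 4.5% and 2.7%, against 3.87% and 9.17% of all named genes. With limma 0 passed the adjusted threshold. Among 19 measured genes of the sensing machinery 14 had a difference above 0, where 62% of named genes did. The median of the 19 was 0.10, and 1 of them passed the unadjusted threshold. That gene was Eloc, the elongin C of the Vhl complex, at 10.94 ± 0.01 in MetS and 11.19 ± 0.12 in controls (SD, n = 3 and 4). The groups did not overlap. Eloc had 5 probes, and the one with the lowest mean gave a difference of -1.36, against -0.25 here. The remaining probes are not given, and what each probe reads was not determined, so the size of the Eloc difference is not settled. The difference was -0.11 with the array SD as a covariate (unadjusted p = 0.212).

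The partners of the alpha subunits and of Egln1 did not pass. Arnt, the stable HIF subunit, stood at 10.42 ± 0.07 in MetS and 10.31 ± 0.08 in controls. Egln2, the remaining prolyl hydroxylase, stood at 8.83 ± 0.14 and 8.62 ± 0.13, and Hif1an, the asparagine hydroxylase that silences the alpha subunits, at 9.37 ± 0.11 and 9.22 ± 0.15 (SD, n = 3 and 4 for each). Each pair of groups overlapped (limma, adjusted p = 0.484, 0.397 and 0.487).

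Of 20 glycolytic target genes, 1 was higher and 1 lower at the unadjusted threshold, with a median difference of 0.10. Among all named genes 3.87% were higher, 9.17% were lower and 11.6% had groups without overlap. Pfkfb3, which makes the activator of phosphofructokinase, had log2 values of 9.50, 9.47 and 9.39 in MetS animals, against 9.34, 8.98, 9.02 and 9.18 in controls 1 to 4. The groups did not overlap, and the 1.25-fold difference had an adjusted p of 0.324 in limma. Ldha, the lactate dehydrogenase subunit of hypoxic cells, averaged 11.91 ± 0.26 in MetS and 12.34 ± 0.20 in controls, with overlapping groups, and its other probe gave a difference of 0.05. The glucose transporter Slc2a1 stood at 9.57 ± 0.29 and 9.43 ± 0.16 (SD, n = 3 and 4 for each).

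Of 36 other target genes, 4 were higher and 0 lower at the unadjusted threshold, with a median difference of 0.05. Over all named genes 3.87% were higher, 9.17% were lower and 11.6% had groups without overlap. Mxi1, a repressor of the Myc network, had a log2 level of 11.17 ± 0.06 in MetS and 10.90 ± 0.12 in controls, while Ddit4, which restrains the growth kinase mTOR, had 9.27 ± 0.02 and 8.85 ± 0.31, both without overlap. P4ha2, a collagen prolyl hydroxylase, averaged 8.54 ± 0.15 and 8.27 ± 0.14, and Insig2, which holds back cholesterol synthesis, at 9.07 ± 0.17 and 8.76 ± 0.19, both with overlap (SD, n = 3 and 4 for each). The adjusted p lay between 0.324 and 0.361 for these 4 genes (limma). With the array SD as a covariate the differences of Ddit4, P4ha2 and Insig2 were 0.05, 0.06 and 0.02, against 0.41, 0.27 and 0.30 without it. For Pfkfb3 the difference was 0.14 with it, against 0.32 without it, and for Mxi1 it was 0.17, against 0.27. The other Mxi1 probe gave a difference of 0.062 (unadjusted p = 0.432). Leaving out controls 2 and 3 gave 0.16 for Ddit4, 0.14 for Insig2 and 0.20 for Pfkfb3. Vegfa, the main vessel growth factor and a classical HIF target, stood at 11.91 ± 0.11 in MetS and 11.92 ± 0.14 in controls. The level of Epo, the red cell hormone gene, was 6.41 ± 0.07 and 6.38 ± 0.14 (SD, n = 3 and 4 for each). Both Epo means lay below the 25th percentile of probe means (6.48), so they say little about its expression.

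**Figure D5:**
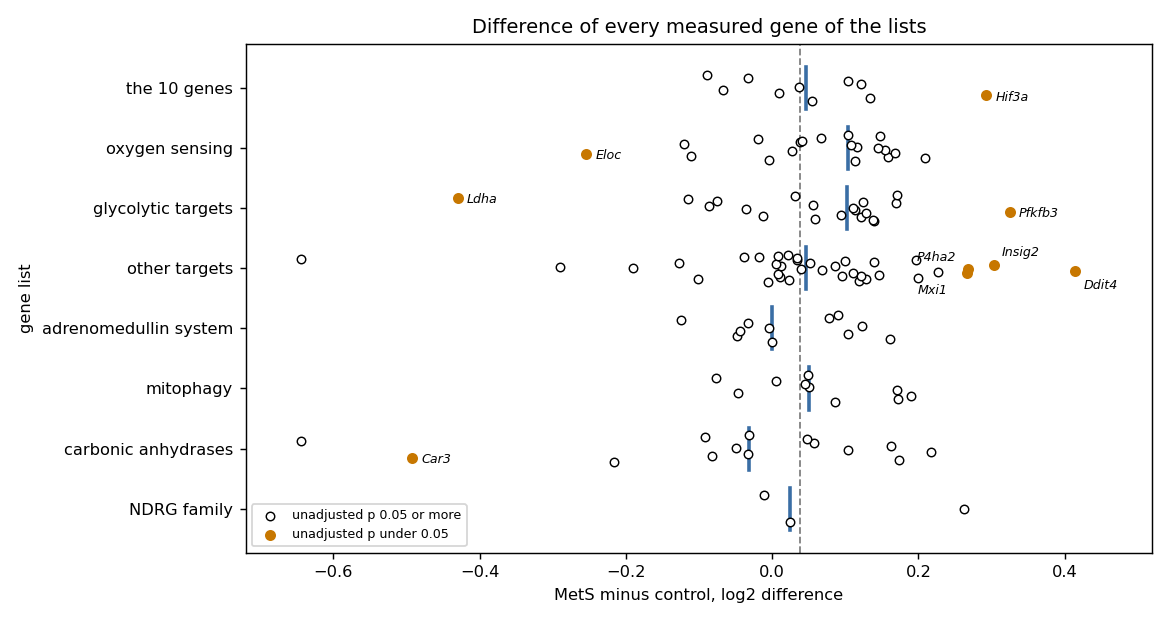
Log2 difference, MetS minus control, of every measured gene in the 10-gene set and 7 further lists. Filled points had an unadjusted p under 0.05 and are named, short vertical lines are list medians, and the dashed line is the median of all named genes (0.04). Most points lie within 0.2 of 0, and no point passed the adjusted threshold.

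In the families of the single targets few genes stood out. Of 11 genes of the adrenomedullin system 0 passed the unadjusted threshold. Calcrl, the adrenomedullin receptor, averaged 12.50 ± 0.10 in MetS and 12.34 ± 0.09 in controls, and its partner Ramp2 11.42 ± 0.17 and 11.32 ± 0.10 (SD, n = 3 and 4 for each). Of 10 mitophagy genes 0 passed as well. Fundc1, a mitophagy receptor, averaged 9.03 ± 0.02 in MetS and 8.86 ± 0.15 in controls, while Becn1, a starter of autophagy, averaged 8.93 ± 0.04 and 8.76 ± 0.18 (SD, n = 3 and 4 for each).

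Of 14 carbonic anhydrases besides Car9, 1 was lower and 0 higher at the unadjusted threshold, against 9.17% and 3.87% of all named genes. Car3, a cytosolic form of muscle and fat, had log2 values of 8.07, 8.27 and 8.41 in MetS animals, against 8.50, 8.77, 8.92 and 8.77 in controls 1 to 4. Every MetS animal was below every control, and the 0.711-fold difference had an adjusted p of 0.324 (limma, unadjusted p = 0.00437). The Car3 difference was -0.30 with the array SD as a covariate, against -0.49 without it. Of the 3 relatives of Ndrg1 none passed, with Ndrg3 at 8.28 ± 0.06 in MetS and 8.02 ± 0.31 in controls (SD, n = 3 and 4).

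Of 3 measured red cell markers 2 were higher at the unadjusted threshold, where 3.87% of all named genes were. The adjusted threshold was passed by 0. Hbb, a beta globin gene, averaged 13.30 ± 0.09 in MetS and 13.01 ± 0.17 in controls, while Alas2, the haem synthesis enzyme of red cell precursors, averaged 10.98 ± 0.25 and 10.35 ± 0.47 (SD, n = 3 and 4 for each). The groups overlapped for each gene, with control 4 among the MetS animals (limma, adjusted p = 0.330 and 0.356). The mean of the 3 measured red cell markers ranged from 10.46 to 10.95 in MetS and from 9.96 to 10.65 in controls. Their part in the values of the 10 genes was not tested.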

How the data were processed

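Per the labels' protocols, lung RNA was isolated with Trizol, accepted from an RNA integrity number of 6, and labelled with biotin from 50 ng. Log2 values, 1 column per array, were deposited by the authors. Per the submitters' processing notes the tools were R 2.11.0, RMA and limma, listed without roles; the build is not stated there. The array medians lay between 7.64 and 7.69 and the array SDs between 1.76 and 1.94. The small number of animals limits the precision.

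The 10 genes and all lists were chosen with earlier results of these data known. Probes were named through the platform annotation, with symbols updated by gene identifier (RefSeq, assembly GRCr8): 15209 of 28826 probes had 1 symbol, 306 several and 13311 none. The probe with the highest mean stood for its gene, and 2 of the 10 genes had several probes. Arrays of an animal were averaged. Groups were compared with limma 3.58.1 (lmFit, eBayes; R 4.3.3) as MetS minus control, and p-values were adjusted by Benjamini and Hochberg's method over every probe. The fit was checked on simulated data whose added changes were larger than any difference of the 10 genes. The check does not cover differences as small as theirs. Exact permutation tests used scipy 1.17.1, and figures matplotlib 3.10.9. All 10 genes were named. Of each further list the genes with an unadjusted p under 0.05 were named, up to 6, or else the 2 with the smallest p, with 8 genes fixed by name. Of the marker lists up to 2 genes by smallest p were eligible, and some are tabulated only, as are those of a glucocorticoid list. The labels do not say whether same-numbered animals of the groups are paired. The alternatives were array averaging, normalization, filters, moderation, weights, the replicate number as a block, left-out animals, the SD as covariate and the probe rule.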

Additional observations from a re-analysis of the deposited data

How the results depend on the processing

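Limits. With 3 and 4 animals the precision is low, and nothing says how litters or cages were shared. The array SD was lowest in 2 controls, so it and the group cannot be fully told apart. Where a sign turned, the cause was not tested.

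Hif3a stayed above 0 in all 21 alternatives, from 0.21 to 0.36. Its unadjusted p was under 0.05 in 20 of them, the exact permutation test (0.0571) being the exception. Many of the alternatives could not turn its sign. Hif3a had 1 probe, so the probe rules repeated its difference, as did the filters, the moderation and the permutation test. Its groups did not overlap, so leaving out animals kept the sign too. None of the 10 genes passed the adjusted threshold in any fit. Of 189 alternative values of the other 9 genes 30 turned sign, and of 539 of 27 further genes 28 did. These totals include values that could not turn. The filters, the moderation and the permutation test repeat the difference as reported, as do the probe rules for genes with 1 probe. The shares that turned are therefore no measure of how stable the signs were. Egln1 turned sign in 9 of its 21 alternatives. With the array SD as covariate 2 of the 10 genes were lower at the unadjusted threshold, where 540 of all probes were lower and 483 higher, and the median difference of the 10 was -0.087. Differences there were -0.094 for Hif1a, -0.30 for Egln1, -0.079 for Vhl, -0.11 for Adm, -0.074 for Bnip3, 0.11 for Car9, -0.012 for Fundc1, -0.066 for Becn1, -0.12 for Ndrg3, -0.037 for Ndrg2, 0.0034 for Vegfa, -0.18 for Slc2a1 and -0.057 for Hif1an, and 0 other pathway genes were higher and 5 lower. Without controls 2 and 3, 4 of the 10 genes did not overlap, against 18.2% of named genes. Of these, Hif3a was higher in MetS, while Egln1, Egln3 and Ndrg1 were lower. Among all animals, control 3 had the lowest value for Egln1, Egln3 and Ndrg1. In that fit 1 other pathway gene was higher, where 413 of all probes were higher. Differences there were -0.015 for Hif1a, -0.17 for Egln1, -0.021 for Vhl, -0.032 for Bnip3, 0.038 for Car9, -0.039 for Ndrg2 and 0.012 for Vegfa. At a threshold of 0.01, 0 other pathway genes were higher and 1 lower.

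Leaving out each animal in turn gave 1 to 2 of the 10 genes higher and 1 to 2 without overlap (12.8% to 28.3% of named genes in the same fits). It gave 2 to 10 other pathway genes higher, the most without control 4 and the fewest without control 2. The background moved in the same way. Over all probes 2016 were higher without control 4 and 524 without control 2, against 1102 with all animals. Whether the pathway counts exceed this shift was not tested. Differences ranged from -0.012 to 0.10 for Hif1a, -0.077 to 0.090 for Egln1, -0.22 to 0.19 for Egln3, -0.016 to 0.070 for Vhl, -0.0020 to 0.20 for Bnip3, -0.083 to 0.015 for Car9, -0.036 to 0.092 for Ndrg2, -0.067 to 0.046 for Vegfa, -0.028 to 0.23 for Slc2a1 and -0.016 to 0.089 for Epo. With the first array of each animal, Egln1 was -0.031 and Car9 0.0096. Quantile normalization again gave -0.033 for Egln1, -0.0059 for Vhl, 0.073 for Car9, 0.024 for Calcb and -0.010 for Ndrg2, and made 2312 probes higher and 1993 lower at the unadjusted threshold, against 1102 and 2857 without it. Centring on the median gave 0.0055 for Vegfa, and array weights gave -0.053 for Egln1, -0.035 for Ndrg2 and 0.023 for Vegfa. The mean of the probes gave -0.00029 for Bnip3, and the probe with the lowest mean gave -0.10 for Bnip3 and 0.054 for Ldha.

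Deviations of same-numbered animals from their group means correlated at 0.271, -0.118 and 0.339 for numbers 1 to 3. MetS animal 1 alone correlated best with its own number. So few correlations cannot decide whether the numbers pair the animals, and the labels state no pairing. With the replicate number as a block, which drops control 4, 2017 probes passed the adjusted threshold, against 0 without it. There Hif3a stood at 0.31 (limma, adjusted p = 0.0788), and differences were -0.00012 for Ndrg2, 0.043 for Vegfa and -0.0069 for Epo. In that fit 14 other pathway genes were higher at the unadjusted threshold. Car3 and Ldha, both lower in MetS, passed the adjusted threshold in that fit alone (limma, adjusted p = 0.0298 and 0.0371). Over all probes 2204 were higher there, against 1102 without the block, so the background rose as well.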

Other observations

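Outside the oxygen response, 6 of 18 measured glucocorticoid target genes were higher and 0 lower at the unadjusted threshold, against 3.87% and 9.17% of all named genes, and 0 passed the adjusted one (limma). With the array SD as a covariate none of these 6 passed the unadjusted threshold, their p lying between 0.056 and 0.653, and the list median was 0.060, against 0.28 without it. The list mean was 10.09, 9.89 and 9.94 in MetS animals, against 9.90, 9.69, 9.56 and 9.62 in controls 1 to 4. The glucocorticoid list was chosen with earlier results of these data known, so its counts are a description and not a test. Ddit4, described above among the hypoxia targets, is also known to respond to glucocorticoids.

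Of the cell type lists, alveolar type 2 cells had 1 of 8 markers higher, fibroblasts 1 of 6 higher, red cells 2 of 3 higher and club cells 1 of 4 lower at the unadjusted threshold, where 3.87% of all named genes were higher and 9.17% lower. None passed it in the lists of endothelium, alveolar type 1 and ciliated cells, smooth muscle, macrophages, T cells, B cells, neutrophils and heart muscle.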
